A study of Sus scrofa with 8 samples.

Results

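The comparison set definitive endoderm (DE) against pluripotent stem cells (PSC) of the pig (Sus scrofa), the opening step of a protocol that went on through anterior foregut endoderm to lung progenitor organoids. It was drawn by sample: 4 of the 8 libraries of the series belong to it, 2 of DE and 2 of PSC, and every gene in the table was examined. The labels give each group by its stage alone, so the line, the inducing agents, the days of treatment, the sex and the passage of the cells are not stated, and nothing says whether libraries 1 and 2 of a stage came from separate cultures. P-values therefore measure the spread between these libraries, which may be technical. The anterior foregut and organoid libraries, 2 each, entered the filter on low counts, the scaling and the estimate of that spread. They were not themselves compared.

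Definitive endoderm is the germ layer that gives rise to the lining of the gut and airways and to the liver, pancreas and thyroid. In the embryo, and in culture, pluripotent cells reach it under strong NODAL or activin signalling together with WNT, and while they do so they lose the pluripotency network and turn on FOXA, GATA and SOX17. Pluripotent cells ferment much of the glucose they take up, and lineage commitment is often accompanied by shifts in metabolism, in receptors and in the matrix that cells secrete.

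Messenger RNA was selected with oligo(dT) and sequenced as paired ends from dUTP-marked libraries. DE libraries held 62426232 and 61748702 counts, and PSC libraries 42251431 and 36004372 counts. If 1 read pair weighs 4 counts, these would be about 15606558 and 15437176 read pairs in DE and 10562858 and 9001093 in PSC. That weight is an assumption: of counts from 1 to 12, 46.4% and 49.7% in DE and 48.5% and 50.7% in PSC were 4, 8 or 12. Levels are given as FPKM (fragment numbers corrected for transcript length and sequencing depth) as the authors deposited them, 1 value for each library. Changes are log2 changes, DE minus PSC, from edgeR's quasi-likelihood test on the counts. The standard error (±) was derived from that test, as the size of the log2 change divided by the square root of the F statistic. A gene was called when its Benjamini-Hochberg adjusted p over all 19346 genes tested was under 0.05. Libraries of a stage resembled each other more (Pearson r of log2 CPM over genes 0.972 in DE and 0.962 in PSC) than libraries of different stages did (0.860 to 0.873). With 2 libraries against 2, an exact permutation test of a single value cannot go below p = 0.33, so calls rest on the spread shared over all 4 stages, with 4 residual degrees of freedom.

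Of 17 markers of definitive endoderm 11 were higher in DE, 4 lower and 2 not called. SOX17, an endoderm transcription factor, stood at 91.73 and 82.99 FPKM in DE against 0.11 and 0.29 FPKM in PSC, FOXA2 at 115.2 and 113.2 FPKM in DE against 3.48 and 4.02 FPKM in PSC, and GATA4 at 71.45 and 74.6 FPKM in DE against 0.04 and 0.12 FPKM in PSC. POU5F1, the core pluripotency factor, had 258.8 and 253.5 FPKM in DE against 3063 and 3457 FPKM in PSC. For these 4 genes DE and PSC values lay apart, as they did (by CPM, the counts scaled for depth) for 72.7% of all genes tested, so such separation is the common state in this comparison. The 4 markers of definitive endoderm that were lower were CER1, GSC, OTX2 and KIT. CER1, a secreted antagonist of NODAL, had 0.25 and 0.15 FPKM in DE against 8.84 and 7.96 FPKM in PSC (-5.31 ± 0.57, adjusted p = 0.000124). GSC, a homeobox factor of the organiser, had 2.04 and 1.14 FPKM in DE against 7.7 and 6.31 FPKM in PSC (-2.10 ± 0.46, adjusted p = 0.00566). OTX2 had 50.3 and 33.43 FPKM in DE against 66.29 and 68.96 FPKM in PSC (-0.66 ± 0.19, adjusted p = 0.0261), and its call was lost without either PSC library (-0.70 and -0.61) or without the second DE library (-0.41). MIXL1 was not called (0.5 and 0.06 FPKM in DE, 1.1 and 1.13 FPKM in PSC; adjusted p = 0.0559). Across all genes, 10415 of 19346 were called (53.8%), 5962 of them higher in DE (30.8%) and 4453 lower (23.0%), and 4407 (22.8%) were called with a rise of 2-fold or more and 2235 (11.6%) with a fall of 2-fold or more. Another scaling, centring on the median gene, set to 0 each library's median deviation from the gene means over all 8 libraries. With it the split became 4849 higher and 5900 lower, and the median log2 change of DE against PSC was -0.06. DESeq2's size factors gave a median of 0.00, with 5352 higher and 5212 lower. Centring on the median gene lowered each gene's log2 change by a median of 0.31, and DESeq2's size factors by 0.16. Calls of small changes therefore depend on the scaling.

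Other lineages' markers also moved. Of 30 tested genes of primitive and visceral endoderm, the extraembryonic endoderm, 24 were higher in DE and 1 lower. Their summed level was 15660 and 15499 FPKM in DE against 515.76 and 547.65 FPKM in PSC. APOA1 and APOE made up nearly all of the DE sum. Of the list's members, TTR and CUBN were listed at 0 in DE. Mesoderm markers were higher in DE for 14 of 22 tested (1 lower), with a sum of 67.65 and 48.59 FPKM in DE against 7.89 and 7.28 FPKM in PSC and with TBXT and TBX5 listed at 0 in DE. Amnion and trophoblast markers were higher for 11 of 20 (3 lower; 92.06 and 100.66 FPKM in DE, 34.03 and 31.77 FPKM in PSC), with KRT23 listed at 0 in DE. Fibroblast and stromal markers were higher for 17 of 23 (1 lower; 609.76 and 509.76 FPKM in DE, 374.88 and 369.82 FPKM in PSC), with COL6A3 listed at 0 in DE. Endothelial and blood markers were higher for 13 of 20 (3 lower; 82.38 and 74.18 FPKM in DE, 15.97 and 13.24 FPKM in PSC), with PTPRC, HBE1 and HBM listed at 0 in DE. Neuroectoderm markers were lower for 3 of 15 and not called for the others (summed level 159.29 and 119.68 FPKM in DE, 260.38 and 240.64 FPKM in PSC), with PAX6, SOX1, SIX6, ZIC1 and NEUROG2 listed at 0 in both stages. Other scalings and models called 4 or 5 neuroectoderm markers lower. These lineage sums and calls are of bulk RNA. The part of cells of these lineages in the results below was not tested, and in bulk RNA a change in the number of cells of a type cannot be told apart from a change in RNA per cell.

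A value of 0 in this table can be a failed estimate. OST4, a subunit of the oligosaccharyltransferase that every cell needs, was listed at 0 in both PSC libraries but at 89.1 and 81.63 FPKM in DE, and 8 genes were listed at 0 in both PSC libraries while above 10 FPKM in both DE libraries. Genes listed at 0 are therefore given as listed, with no fold change. Where a list holds such genes, its median log2 change is given as fitted and also with those genes placed at a bound. The bound is what 12 counts per library would give, taken as 3 read pairs at 4 counts each. Over all genes tested these medians were 0.08 and 0.00.

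Calls were spread unevenly over 62 gene lists of metabolism, surface receptors, secreted factors, transcription factors, chromatin and cell type markers. Of 439 tested genes for secreted factors, 231 were higher in DE (52.6%, against 30.8% of all genes) and 46 lower (10.5%, against 23.0%). Among the 16127 protein-coding genes tested, 34.43% were higher and 25.55% lower. Of 372 genes for surface receptors 178 were higher (47.8%) and 64 lower (17.2%), and of 570 transcription factor genes 239 were higher (41.9%) and 98 lower (17.2%). Of 541 metabolic genes 183 were higher (33.8%) and 213 lower (39.4%). In 51 of the 62 lists the direction with more calls was the same under each of 5 other scalings or models. Exceptions were 11 lists, those of glycogen and gluconeogenesis, the serine, folate and methionine cycle, fatty acid synthesis, fatty acid oxidation, iron and haem, retinoids and steroids, TGF-beta receptors, FGF ligands, nuclear receptors, early zinc finger regulators and chromatin regulators.

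**Figure D1:**
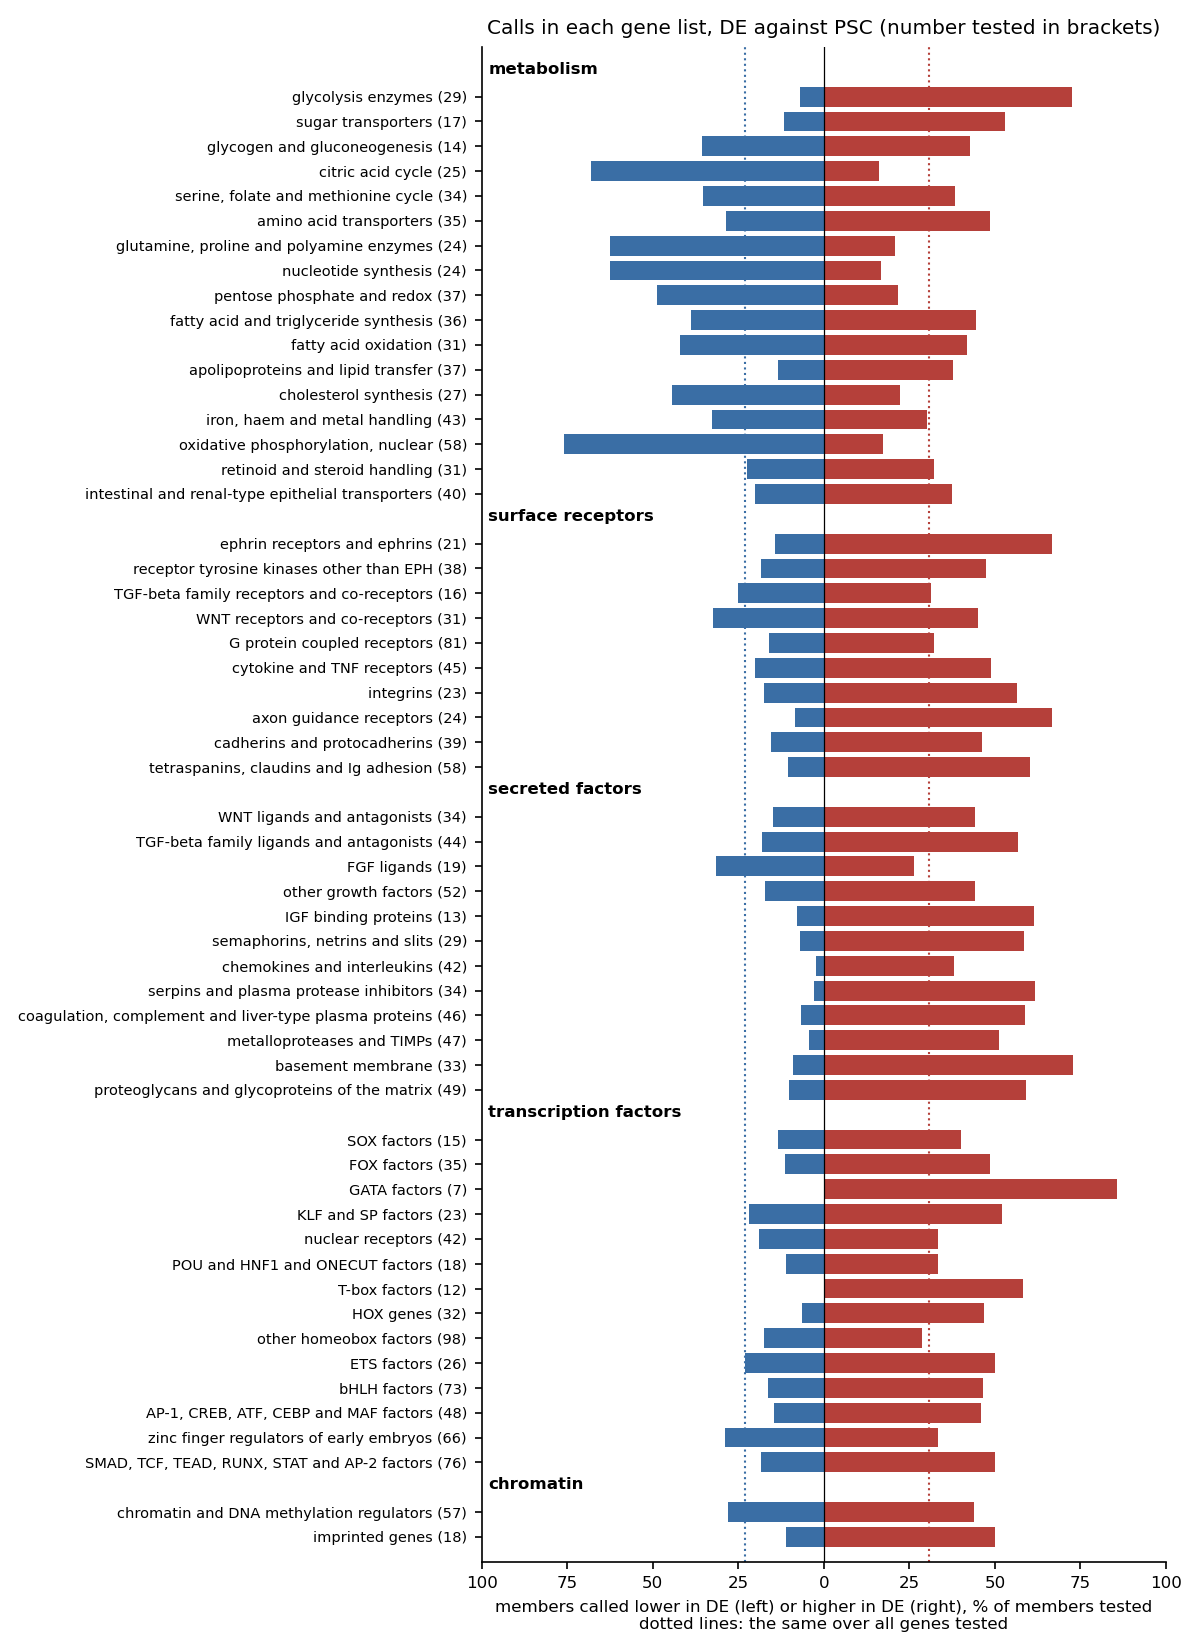
Share of the tested members of each gene list called higher in DE (red, right) or lower in DE (blue, left), with the number tested in brackets and the shares over all genes tested (30.8% and 23.0%) as dotted lines. Glycolysis, basement membrane and GATA factor genes reach far to the right, and oxidative phosphorylation and citric acid cycle genes to the left.

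Of 29 glycolysis genes, 21 were called higher in DE, 2 lower and 6 not at all, with a median log2 change of 0.96, and the list took 3.31% and 2.52% of all FPKM in DE against 1.8% and 1.64% in PSC. LDHA, which turns pyruvate into lactate (chromosome 2, positions 40814169 to 40826715 in the file), had 1489 and 1041 FPKM in DE against 140.8 and 141.1 FPKM in PSC, a log2 change of 3.20 ± 0.15, adjusted p = 1.96e-06. SLC16A3, the transporter that carries lactate out of the cell (chromosome 12, positions 796883 to 799864), had 401.6 and 271.7 FPKM in DE against 7.59 and 6.63 FPKM in PSC (5.60 ± 0.20, adjusted p = 6.1e-07). Both genes were high in both DE libraries and low in both PSC libraries. The liver-type phosphofructokinase PFKL rose to 282 and 234.1 FPKM in DE, against 32.79 and 36.06 FPKM in PSC (2.94 ± 0.10, adjusted p = 6.1e-07), while the muscle-type PFKM was not called.

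Other enzymes of the pathway had smaller changes. ALDOA (aldolase) had 1148 and 896.7 FPKM in DE against 336.8 and 217 FPKM in PSC (1.92 ± 0.19, adjusted p = 7.41e-05), and ENO1 (enolase) had 1348 and 946.9 FPKM in DE against 499.4 and 365.4 FPKM in PSC (1.45 ± 0.17, adjusted p = 0.000233). TPI1, the triose phosphate isomerase, moved least of these, with 1023 and 891.4 FPKM in DE against 564.7 and 606.5 FPKM in PSC (0.74 ± 0.08, adjusted p = 8.91e-05). GAPDH, often used as a reference gene, was not called (6390 and 4908 FPKM in DE, 5284 and 4893 FPKM in PSC; adjusted p = 0.169), and its libraries overlapped between the stages. The 2 members called lower were an entry on chromosome 2 that carries the name LDHB (6.07 and 4.98 FPKM in DE against 13.2 and 15.08 FPKM in PSC) and PFKFB1, which was under 1 FPKM in all 4 libraries, overlaps another gene in the table and lost its call under other settings. Of the 21 members called higher, 20 were higher in the first DE library than in the second, by a median of 1.37 times, whereas this held for 54.8% of all genes called higher. Without the first DE library 17 members were called higher, and without the second 22.

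PFKFB genes make and remove fructose 2,6-bisphosphate, the strongest activator of phosphofructokinase, and which of them led differed between the stages. PFKFB3, the form with the greatest kinase over phosphatase activity, had 31.57 and 17.57 FPKM in DE against 0.7 and 0.57 FPKM in PSC (5.31 ± 0.29, adjusted p = 3.69e-06). It held 83.4% and 78.7% of the summed PFKFB level in DE against 12.70% and 11.95% in PSC, where PFKFB4 held the most, 56.3% and 62.3%. PFKFB4 itself was not called (5.03 and 3.36 FPKM in DE, 3.1 and 2.97 FPKM in PSC).

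Respiratory chain genes were called lower more than higher. Of 58 nuclear genes for subunits of the respiratory chain and ATP synthase, 44 were lower in DE and 10 higher, with a median log2 change of -0.87. ATP5MC1, a c-ring subunit of ATP synthase, fell to 144.3 and 159.6 FPKM in DE, against 567.2 and 538.3 FPKM in PSC (-1.83 ± 0.14, adjusted p = 2.31e-05). NDUFB9 of complex I fell to 89.08 and 92.66 FPKM in DE, against 297 and 332.8 FPKM in PSC (-1.76 ± 0.08, adjusted p = 1.8e-06). ATP5PO, the stalk subunit, had 420.2 and 419.6 FPKM in DE against 779.9 and 804.2 FPKM in PSC (-0.88 ± 0.05, adjusted p = 7.02e-06). COX8A, a small subunit of cytochrome c oxidase, rose instead, with 544.2 and 544 FPKM in DE against 174.4 and 175.7 FPKM in PSC (1.67 ± 0.06, adjusted p = 8.22e-07), and COX4I1, the most abundant member, was not called (1245 and 1314 FPKM in DE, 1353 and 1157 FPKM in PSC). Genes encoded in the mitochondrial genome were not analysed here.

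In the citric acid cycle and the pyruvate dehydrogenase complex that feeds it, 17 of 25 genes were lower in DE and 4 higher (median log2 change -0.60). SDHB, an iron-sulphur subunit of succinate dehydrogenase, had 133.1 and 147.1 FPKM in DE against 319 and 342.5 FPKM in PSC (-1.20 ± 0.08, adjusted p = 7.94e-06). PDHA1, the catalytic subunit of pyruvate dehydrogenase, had 41.78 and 38.31 FPKM in DE against 84.02 and 89.64 FPKM in PSC (-1.08 ± 0.08, adjusted p = 1.75e-05). SUCLG1 of succinyl-CoA ligase and FH, fumarase, fell by 0.86 and 0.88 on the log2 scale. Members of the same cycle rose: OGDH, the rate-controlling 2-oxoglutarate dehydrogenase, had 27.39 and 29.21 FPKM in DE against 8.43 and 8.1 FPKM in PSC (1.81 ± 0.08, adjusted p = 1.19e-06). IDH3G had 24.61 and 27.07 FPKM in DE against 14.9 and 10.49 FPKM in PSC (1.06 ± 0.15, adjusted p = 0.000492). MDH1, the cytosolic malate dehydrogenase, changed by 0.33 and lost its call with centring on the median gene (0.02). Enzymes of the cycle were thus called in both directions.

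**Figure D2:**
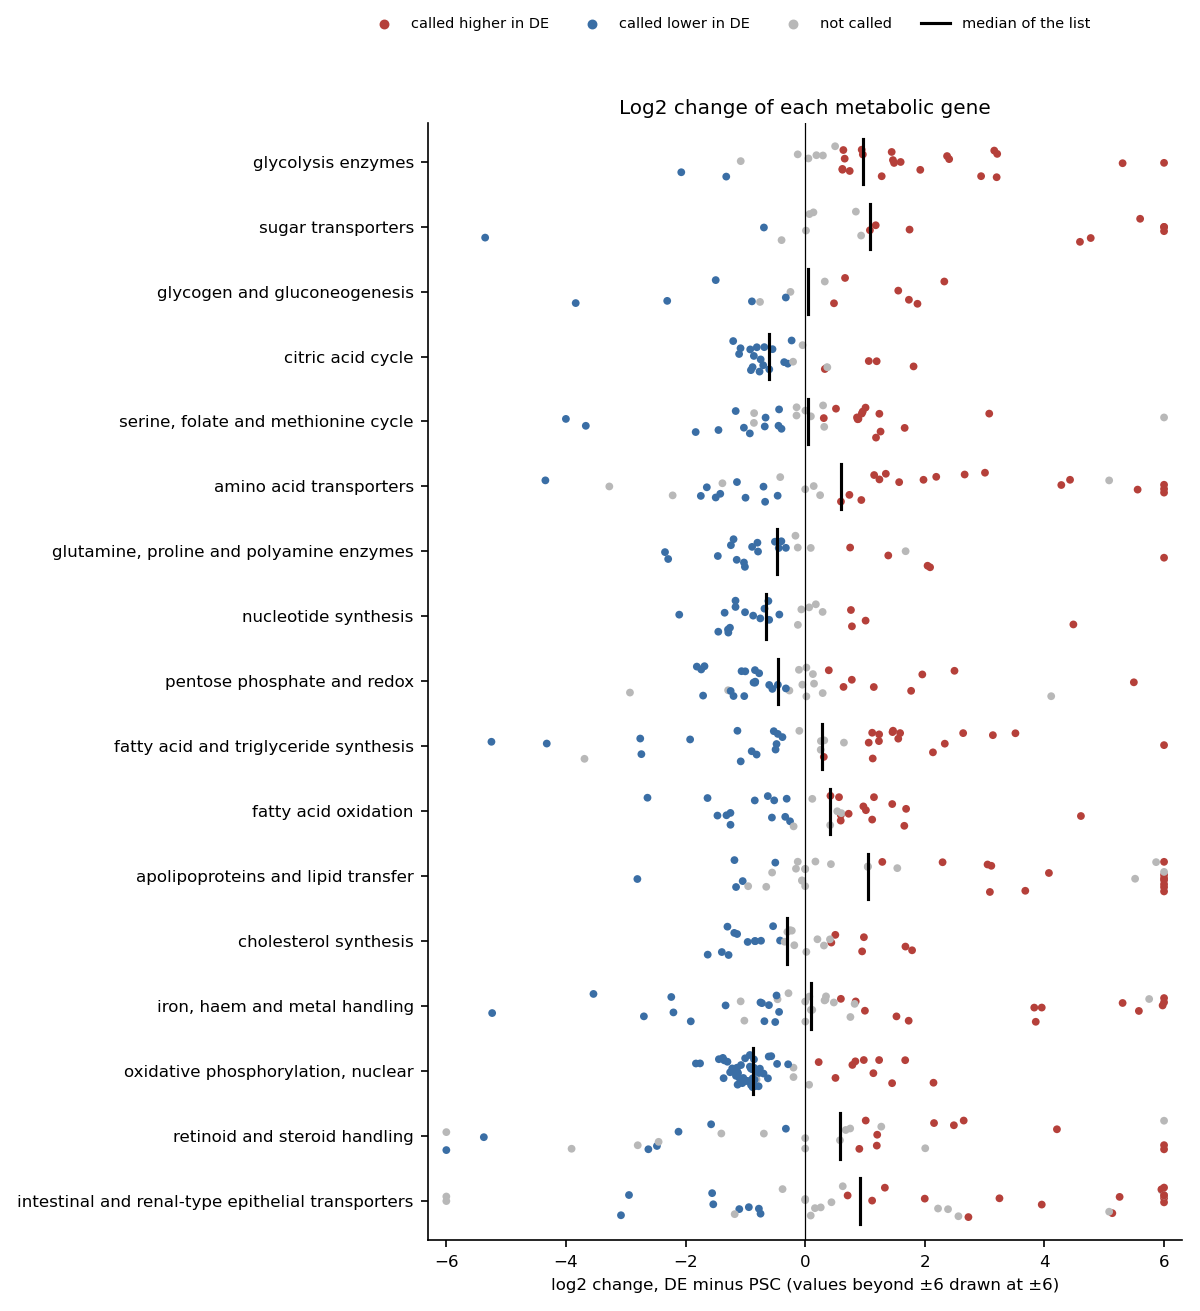
Log2 change (DE minus PSC) of every tested member of the metabolic lists, 1 point a gene, red where called higher, blue where called lower and grey where not called, with the list's median as a black bar. Of the oxidative phosphorylation genes 44 of 58 are drawn blue, left of 0, and 10 red, right of it, glycolysis genes lie mostly right of 0, and the lipid and amino acid lists spread to both sides.

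Of 24 genes for making nucleotides, 15 were lower and 4 higher (median -0.65). Among them CTPS2, a CTP synthase, had 16.1 and 16.9 FPKM in DE against 72.73 and 72.96 FPKM in PSC (-2.11 ± 0.07, adjusted p = 4.17e-07). PAICS of purine synthesis had 44.59 and 51.67 FPKM in DE against 107.5 and 113.8 FPKM in PSC (-1.17 ± 0.08, adjusted p = 1.4e-05). APRT, which salvages adenine, rose (33.03 and 38.54 FPKM in DE, 19.75 and 22.92 FPKM in PSC; 0.78 ± 0.12, adjusted p = 0.00103). In the list of glutamine, proline and polyamine enzymes 15 of 24 fell and 5 rose. ODC1, which commits ornithine to polyamines, had 145.2 and 180.7 FPKM in DE against 381.9 and 357.4 FPKM in PSC (-1.15 ± 0.10, adjusted p = 3.77e-05). The proline-making reductase PYCR1 rose, at 128 and 142.9 FPKM in DE against 37.96 and 29.38 FPKM in PSC (2.05 ± 0.11, adjusted p = 4.2e-06), and its relative PYCR3 did likewise (88.09 and 98.64 FPKM in DE against 20.8 and 24.19 FPKM in PSC; 2.09 ± 0.11, adjusted p = 2.68e-06).

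Genes of the serine, folate and methionine cycles split evenly (13 higher and 12 lower of 34), or 11 and 16 with centring on the median gene. Within them the glycine cleavage enzyme GLDC rose to 60.08 and 53.53 FPKM in DE, against 7.44 and 6.36 FPKM in PSC (3.08 ± 0.19, adjusted p = 7.52e-06). The serine-making PSAT1 fell to 14.24 and 22.99 FPKM in DE, against 67.94 and 67.91 FPKM in PSC (-1.83 ± 0.19, adjusted p = 0.000107). Amino acid transporters were called higher for 17 of 35 and lower for 10. SLC3A2, the heavy chain shared by several of them, rose to 677.8 and 803.8 FPKM in DE, against 279.2 and 232.6 FPKM in PSC (1.57 ± 0.10, adjusted p = 9.4e-06), with its partner SLC7A8 (310.8 and 319.1 FPKM in DE, 162.8 and 174 FPKM in PSC; 0.94 ± 0.06, adjusted p = 9.08e-06). The neutral amino acid carriers SLC38A5 and SLC1A5 fell, SLC38A5 to 81.66 and 85.2 FPKM in DE, against 301.3 and 234.6 FPKM in PSC (-1.65 ± 0.10, adjusted p = 7.65e-06). SLC1A5 fell to 47.71 and 62.02 FPKM in DE, against 123.2 and 124.9 FPKM in PSC (-1.14 ± 0.12, adjusted p = 9.02e-05). SLC7A3, a carrier of arginine and lysine, fell as well (19.53 and 21.19 FPKM in DE, 69.15 and 70.73 FPKM in PSC; -1.75 ± 0.08, adjusted p = 1.66e-06).

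In the pentose phosphate and antioxidant list 18 of 37 genes were lower and 8 higher. The intracellular glutathione peroxidase GPX1 fell to 208.7 and 213.6 FPKM in DE, against 400.1 and 374.6 FPKM in PSC (-0.84 ± 0.06, adjusted p = 1.8e-05). GPX3, the secreted form of that peroxidase (chromosome 16, positions 71980475 to 71989026), had 434.6 and 460.6 FPKM in DE against 12.46 and 7.89 FPKM in PSC (5.50 ± 0.21, adjusted p = 7.82e-07). TALDO1, transaldolase of the pentose phosphate pathway, had 356.1 and 399.9 FPKM in DE against 104.5 and 95.05 FPKM in PSC (1.96 ± 0.08, adjusted p = 9.45e-07).

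Lipid genes were rearranged rather than moved in 1 direction. Fatty acid and triglyceride synthesis had 16 members higher and 14 lower of 36, and fatty acid oxidation 13 and 13 of 31. FASN, fatty acid synthase, had 219.8 and 180.5 FPKM in DE against 32.82 and 32.95 FPKM in PSC (2.64 ± 0.09, adjusted p = 6.69e-07). SREBF1, the transcription factor that drives it, had 63.76 and 54.68 FPKM in DE against 13.13 and 10.97 FPKM in PSC (2.33 ± 0.12, adjusted p = 2.97e-06). ACSL4, which activates arachidonic acid, fell to 1.76 and 1.65 FPKM in DE, against 37.32 and 32.69 FPKM in PSC (-4.32 ± 0.12, adjusted p = 2.11e-07). Cholesterol synthesis was lower for 12 of 27 genes and higher for 6: FDPS, which makes farnesyl diphosphate, had 314 and 371.9 FPKM in DE against 1040 and 1135 FPKM in PSC (-1.63 ± 0.10, adjusted p = 8.13e-06). IDI1, the isomerase before it, had 499.9 and 470.9 FPKM in DE against 1055 and 1135 FPKM in PSC (-1.14 ± 0.06, adjusted p = 4.33e-06). MVD, the decarboxylase just upstream of IDI1, rose instead (172.8 and 185.5 FPKM in DE, 52.14 and 54.26 FPKM in PSC; 1.79 ± 0.07, adjusted p = 9.27e-07), as did SREBF2, the factor that controls the pathway (72.22 and 71.14 FPKM in DE, 24.96 and 21.07 FPKM in PSC; 1.68 ± 0.08, adjusted p = 1.98e-06).

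Lipid carriers were abundant in DE. APOE (chromosome 6, positions 51372292 to 51375330) had 5944 and 5990 FPKM in DE against 345.9 and 379.7 FPKM in PSC (4.08 ± 0.08, adjusted p = 6.43e-08), and together with APOA1 it held 3.37% and 3.35% of all FPKM in DE against 0.0816% and 0.0877% in PSC. Of 37 tested members of the list 14 were higher and 5 lower (median 1.05, or 0.17 with bounds). APOC3 and APOA2 were listed at 0 in PSC and stood at 19.51 and 13.66 FPKM and at 3.51 and 3.04 FPKM in DE. FABP3, a fatty acid binding protein, was abundant in both stages and not called (698.5 and 743.6 FPKM in DE, 774 and 870.1 FPKM in PSC). APOA1 and APOE are also members of the visceral endoderm list above.

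Iron and retinoid genes held single large changes. FTL, ferritin light chain, rose to 5855 and 5539 FPKM in DE, against 3307 and 3201 FPKM in PSC (0.84 ± 0.05, adjusted p = 3.48e-06). SLC39A14, an importer of zinc and iron, fell to 4.79 and 3.68 FPKM in DE, against 50.01 and 51.11 FPKM in PSC (-3.54 ± 0.13, adjusted p = 7.52e-07), and the list as a whole had 13 higher and 14 lower calls of 43. Of retinoid and steroid genes 10 of 31 were higher and 7 lower. The shares called higher in both lists were close to that over all genes tested (30.8%), as was the retinoid share called lower (23.0% over all genes). CRABP2, which carries retinoic acid to its receptors, fell to 122.2 and 72.41 FPKM in DE, against 436.3 and 429.4 FPKM in PSC (-2.12 ± 0.21, adjusted p = 6.78e-05). CYP26A1, which degrades retinoic acid, rose to 40.86 and 24.98 FPKM in DE, against 4.86 and 5.89 FPKM in PSC (2.65 ± 0.22, adjusted p = 3.17e-05). DHRS3, which reduces retinal to retinol, rose to 25.42 and 27.79 FPKM in DE, against 5.66 and 6.59 FPKM in PSC (2.15 ± 0.10, adjusted p = 1.54e-06). The glycogen list was divided (6 higher and 5 lower of 14), with UGP2, which makes UDP-glucose, higher (2.33 ± 0.10, adjusted p = 1.55e-06) and GYG1, glycogenin, lower (-1.50 ± 0.15, adjusted p = 6.81e-05).

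Among transporters of nutrients and ions that mark intestine and kidney, 15 of 40 were higher and 8 lower. These were not far from the shares over all genes tested (30.8% higher and 23.0% lower). The list's median was 0.91, or 0.24 with bounds, as 11 of the 40 were listed at 0 in a stage. SLC29A1, a nucleoside transporter, had 55.21 and 49.03 FPKM in DE against 15.8 and 10.99 FPKM in PSC (2.00 ± 0.15, adjusted p = 1.71e-05). SLC5A6, the vitamin transporter for biotin and pantothenate, had 15.29 and 17.91 FPKM in DE against 47.34 and 51.42 FPKM in PSC (-1.54 ± 0.10, adjusted p = 8.83e-06). SLC13A5, the citrate importer of liver, was at 16.62 and 11.98 FPKM in DE against 0.18 and 0 FPKM in PSC (adjusted p = 0.000225).

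Cell surface receptors for contact and guidance cues were mostly called higher. Of 21 ephrins and EPH receptors, which signal between touching cells, 14 were higher in DE and 3 lower (median 1.02). EFNA1 (chromosome 4, positions 94666460 to 94674071) had the highest level of them in DE, with 143.7 and 133.7 FPKM in DE against 5.88 and 6.42 FPKM in PSC (4.53 ± 0.09, adjusted p = 8.4e-08). EFNA3 rose as well (23.69 and 17.97 FPKM in DE, 4.42 and 4.53 FPKM in PSC; 2.25 ± 0.15, adjusted p = 9.89e-06), and so did EFNB1 (14.09 and 13.64 FPKM in DE, 0.56 and 0.39 FPKM in PSC; 4.90 ± 0.14, adjusted p = 2.85e-07). Receptors for semaphorins, netrins and slits were higher for 16 of 24 and lower for 2 (median 1.904, or 1.86 with bounds). PLXNB2, a semaphorin receptor, had 69.52 and 73.07 FPKM in DE against 22.65 and 17.24 FPKM in PSC (1.88 ± 0.11, adjusted p = 5.63e-06). PLXNA2 had 14.05 and 14.59 FPKM in DE against 0.52 and 0.41 FPKM in PSC (4.97 ± 0.12, adjusted p = 1.5e-07). FLRT3, an adhesion protein that binds FGF receptors and UNC5 receptors, had 40.79 and 39.3 FPKM in DE against 1.16 and 0.79 FPKM in PSC (5.39 ± 0.20, adjusted p = 7.39e-07). ROBO1, a slit receptor, was low in both stages and fell (0.48 and 0.32 FPKM in DE, 2.4 and 1.61 FPKM in PSC; -2.30 ± 0.23, adjusted p = 8.2e-05).

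The semaphorins and netrins themselves followed, with 17 of 29 higher and 2 lower (median 1.56, or 1.39 with bounds). SEMA4C, a ligand of PLXNB2, rose to 22.64 and 25.07 FPKM in DE, against 3.85 and 4.48 FPKM in PSC (2.55 ± 0.11, adjusted p = 1.28e-06). SEMA4D, a ligand of PLXNB1, fell to 4.47 and 4.8 FPKM in DE, against 14.24 and 10.85 FPKM in PSC (-1.40 ± 0.12, adjusted p = 3.97e-05).

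Receptor tyrosine kinases other than EPH receptors were higher for 18 of 38 and lower for 7. The 4 FGF receptors did not move alike: FGFR3 rose to 39.21 and 34.65 FPKM in DE, against 3.81 and 2.98 FPKM in PSC (3.48 ± 0.13, adjusted p = 8.22e-07). FGFR4 rose to 16.99 and 16.96 FPKM in DE, against 5.95 and 5.75 FPKM in PSC (1.57 ± 0.10, adjusted p = 8.99e-06). FGFR1 rose to 41.33 and 40.58 FPKM in DE, against 25.62 and 19.55 FPKM in PSC (0.90 ± 0.11, adjusted p = 0.00025). FGFR2 fell to 7.52 and 7.49 FPKM in DE, against 16.99 and 17.81 FPKM in PSC (-1.18 ± 0.08, adjusted p = 8.32e-06). FGFRL1, a decoy receptor without a kinase domain, rose to 16.94 and 17.01 FPKM in DE, against 1.39 and 1.78 FPKM in PSC (3.45 ± 0.14, adjusted p = 9.76e-07). KIT, the stem cell factor receptor that is used to sort definitive endoderm in human cultures, was lower, with 11.23 and 9.4 FPKM in DE against 24.25 and 27.24 FPKM in PSC (-1.28 ± 0.12, adjusted p = 5.16e-05). KDR, the VEGF receptor of endothelium and its precursors, was at 11.69 and 6.33 FPKM in DE against 0.09 and 0 FPKM in PSC (adjusted p = 4.26e-05). PDGFRA, a receptor of mesoderm and primitive endoderm, was at 9.75 and 7.96 FPKM in DE against 0.04 and 0 FPKM in PSC (adjusted p = 3.25e-06).

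WNT receptors and co-receptors were called in both directions (14 higher and 10 lower of 31). Frizzleds, the receptors proper, did so too: FZD10 (chromosome 14, positions 24920679 to 24922424) fell to 0.6 and 0.8 FPKM in DE, against 22.54 and 22.06 FPKM in PSC (-4.94 ± 0.21, adjusted p = 1.3e-06). FZD5 fell to 3.98 and 1.99 FPKM in DE, against 14.07 and 13.97 FPKM in PSC (-2.19 ± 0.28, adjusted p = 0.000295). FZD2 rose to 63.08 and 50.61 FPKM in DE, against 14.91 and 13.37 FPKM in PSC (2.04 ± 0.12, adjusted p = 4.31e-06). FZD7 rose to 42.44 and 40.45 FPKM in DE, against 14.34 and 13.12 FPKM in PSC (1.63 ± 0.08, adjusted p = 2.16e-06). Their co-receptors split as well, LRP5 higher (9.53 and 10.26 FPKM in DE, 1 and 1.67 FPKM in PSC; 2.93 ± 0.22, adjusted p = 1.79e-05) and LRP6 lower (1.93 and 2.59 FPKM in DE, 3.77 and 3.59 FPKM in PSC; -0.67 ± 0.16, adjusted p = 0.00878). Glypicans, heparan sulphate proteoglycans that present WNT and FGF, changed their leading member: GPC1 held 50.6% and 53.5% of the summed glypican level in DE against 6.05% and 5.39% in PSC, and GPC4 held 11.4% and 12.6% in DE against 81.0% and 84.5% in PSC. GPC4 fell to 6.82 and 7.16 FPKM in DE, against 59.07 and 68.19 FPKM in PSC (-3.15 ± 0.10, adjusted p = 3.93e-07). GPC1 rose to 30.32 and 30.28 FPKM in DE, against 4.41 and 4.35 FPKM in PSC (2.83 ± 0.07, adjusted p = 1.52e-07).

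Adhesion receptors were called higher more than lower. Of 23 integrin chains 13 were higher and 4 lower (median 0.75). ITGA5, the alpha chain of the fibronectin receptor (chromosome 5, positions 19586746 to 19610362), had 68.79 and 74.09 FPKM in DE against 3.51 and 3.34 FPKM in PSC (4.42 ± 0.08, adjusted p = 3.33e-08). Its beta partner ITGB1 had 64.32 and 60.4 FPKM in DE against 38.81 and 37.07 FPKM in PSC (0.75 ± 0.06, adjusted p = 2.04e-05). Tetraspanins, claudins and immunoglobulin adhesion proteins were higher for 35 of 58 and lower for 6. BCAM, a receptor for laminin alpha 5, had 227.4 and 243.1 FPKM in DE against 12.3 and 11.39 FPKM in PSC (4.35 ± 0.07, adjusted p = 2.92e-08). CD151, a tetraspanin that binds laminin-binding integrins, had 71.28 and 71.55 FPKM in DE against 9.96 and 10.34 FPKM in PSC (2.85 ± 0.08, adjusted p = 2.81e-07). CLDN6, the most abundant claudin of these PSC libraries, was not called (577.6 and 686.3 FPKM in DE, 683.5 and 746.7 FPKM in PSC), while CLDN3 rose (71.51 and 89.07 FPKM in DE, 13.26 and 12.61 FPKM in PSC; 2.67 ± 0.12, adjusted p = 1.39e-06). Cadherins and protocadherins were higher for 18 of 39 and lower for 6, with PCDH7 at 7.02 and 7.42 FPKM in DE against 0.05 and 0.05 FPKM in PSC (7.18 ± 0.35, adjusted p = 2.08e-06). PCDH8 had 0.19 and 0.04 FPKM in DE against 9.91 and 11.69 FPKM in PSC (adjusted p = 9.16e-05). DSC2, a desmosomal cadherin, had 26.04 and 30.16 FPKM in DE against 5.66 and 5.52 FPKM in PSC (2.37 ± 0.09, adjusted p = 9.38e-07).

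G protein coupled receptors were called higher at close to the share over all genes (30.8%), 26 of 81, and lower for 13, with single large changes. With centring on the median gene the counts were 25 higher and 22 lower. PTH1R, the receptor for parathyroid hormone and its related peptide, was at 50.4 and 52.58 FPKM in DE against 0.16 and 0 FPKM in PSC (adjusted p = 2.77e-06). ADGRB1, an adhesion receptor that binds phosphatidylserine on dying cells, had 25.59 and 27.13 FPKM in DE against 1.65 and 1.25 FPKM in PSC (4.22 ± 0.17, adjusted p = 1.06e-06). GPRC5C, an orphan receptor, had 41.13 and 38.26 FPKM in DE against 10.81 and 9.59 FPKM in PSC (2.00 ± 0.08, adjusted p = 9.76e-07). RAMP2, the partner that turns the calcitonin-like receptor into an adrenomedullin receptor, fell to 6.33 and 6.83 FPKM in DE, against 35.23 and 38.39 FPKM in PSC (-2.44 ± 0.17, adjusted p = 1.28e-05). Of cytokine and TNF receptors 22 of 45 were higher and 9 lower, CNTFR with 23.61 and 16.36 FPKM in DE against 3.33 and 2.05 FPKM in PSC (2.92 ± 0.24, adjusted p = 2.88e-05) and TNFRSF1A with 16.45 and 18.81 FPKM in DE against 7.21 and 8.19 FPKM in PSC (1.23 ± 0.11, adjusted p = 4.09e-05). TGF-beta family receptors gave 5 higher and 4 lower calls of 16, near the shares over all genes tested (30.8% and 23.0%). The activin and NODAL receptor ACVR1B rose to 13.68 and 13.69 FPKM in DE, against 2.88 and 3.03 FPKM in PSC (2.24 ± 0.11, adjusted p = 2.52e-06). RGMB, a BMP co-receptor, fell to 0.31 and 0.3 FPKM in DE, against 3.48 and 3.91 FPKM in PSC (-3.55 ± 0.17, adjusted p = 1.87e-06). TGFBR1, which serves TGF-beta itself, was not called (10.73 and 11.82 FPKM in DE, 12.23 and 11.63 FPKM in PSC).

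**Figure D3:**
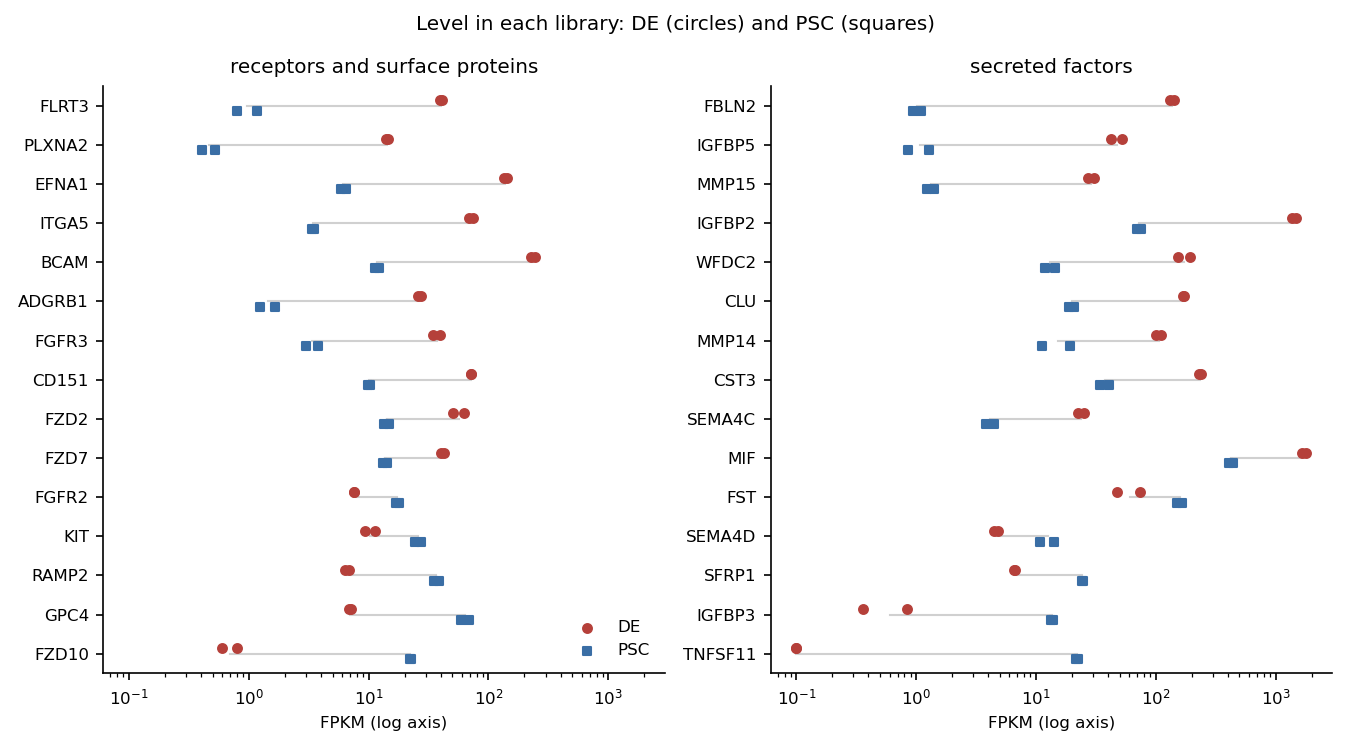
FPKM in each library on a log axis for receptors and surface proteins (left) and secreted factors (right), ordered by log2 change, with DE as red circles and PSC as blue squares, a grey line joining the stage means. The DE circles and the PSC squares do not overlap in the genes drawn, which were taken from called genes (72.7% of all genes tested do not overlap), and the genes run from FLRT3 and FBLN2 at the top, higher in DE, to FZD10 and TNFSF11 at the bottom, lower in DE.

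Among secreted proteins, IGFBP2, which binds insulin-like growth factors outside the cell (chromosome 15, positions 118822047 to 118850976), had 1488 and 1375 FPKM in DE against 75.84 and 69.99 FPKM in PSC (4.33 ± 0.07, adjusted p = 2.92e-08). IGFBP5 rose to 42.66 and 52.61 FPKM in DE, against 1.29 and 0.86 FPKM in PSC (5.50 ± 0.19, adjusted p = 5.52e-07). IGFBP4 rose to 27.79 and 23.73 FPKM in DE, against 6.23 and 5.52 FPKM in PSC (2.17 ± 0.11, adjusted p = 3.22e-06). IGFBP3 was the exception, falling to 0.84 and 0.36 FPKM in DE, against 13.96 and 13.36 FPKM in PSC (-4.46 ± 0.30, adjusted p = 9.83e-06, and -5.18 without the first DE library). Of the 13 genes in the list 8 were higher and 1 lower.

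Protease inhibitors and plasma proteins were called higher far more than lower. Of 34 serpins and related inhibitors, 21 were higher and 1 lower, and of 46 genes for coagulation, complement and other plasma proteins of liver, 27 were higher and 3 lower (medians 1.74 and 2.75, or 1.04 and 1.26 with bounds). CST3, cystatin C, an inhibitor of cathepsins, had 240.9 and 231.4 FPKM in DE against 40.88 and 34.15 FPKM in PSC (2.69 ± 0.09, adjusted p = 6.04e-07). WFDC2 had 192.3 and 153.3 FPKM in DE against 14.55 and 11.8 FPKM in PSC (3.74 ± 0.15, adjusted p = 9.22e-07). CLU, the extracellular chaperone clusterin, had 172.1 and 169.5 FPKM in DE against 20.98 and 18.73 FPKM in PSC (3.14 ± 0.07, adjusted p = 1.14e-07). Most plasma protein genes other than CLU were low: PROS1, protein S, was at 4.81 and 4.75 FPKM in DE against 0.68 and 0.81 FPKM in PSC (2.72 ± 0.16, adjusted p = 5.05e-06). LCN2, lipocalin 2, fell (1.96 and 1.49 FPKM in DE, 6.81 and 11.11 FPKM in PSC; -2.34 ± 0.31, adjusted p = 0.000359).

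Calls of matrix genes, and of the enzymes that cut matrix, were mainly of higher levels in DE. Of 33 basement membrane genes 24 were higher and 3 lower (median 2.59, or 2.03 with bounds). PXDN, the peroxidase that cross-links collagen IV, had 108.3 and 112.8 FPKM in DE against 9.86 and 9.44 FPKM in PSC (3.55 ± 0.07, adjusted p = 6.56e-08). AGRN, agrin, had 61.42 and 59.49 FPKM in DE against 7.51 and 6.11 FPKM in PSC (3.19 ± 0.09, adjusted p = 2.83e-07). The laminin chain LAMA1 had 30.96 and 31.95 FPKM in DE against 4.04 and 4.37 FPKM in PSC (2.94 ± 0.09, adjusted p = 3.62e-07). SPARC, which binds collagen IV, rose too (207.2 and 197.3 FPKM in DE, 51.74 and 49.9 FPKM in PSC; 2.03 ± 0.05, adjusted p = 1.62e-07). SPARC, LAMA1, LAMB1, LAMC1, COL4A1 and COL4A2 are also members of the visceral endoderm list. SMOC1, a relative of SPARC, fell to 0.12 and 0.05 FPKM in DE, against 0.75 and 0.56 FPKM in PSC (adjusted p = 0.000251). Matrix proteoglycans and glycoproteins were higher for 29 of 49 and lower for 5, with FBLN2, a fibulin, at 142.3 and 130.5 FPKM in DE against 0.94 and 1.1 FPKM in PSC (7.09 ± 0.17, adjusted p = 1.28e-07) and FBLN1 at 195.3 and 210.6 FPKM in DE against 37.07 and 29.67 FPKM in PSC (2.64 ± 0.10, adjusted p = 7.35e-07).

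Metalloproteases and their inhibitors were higher for 24 of 47 and lower for 2. The membrane-bound MMP14 and MMP15 rose, MMP14 to 99.95 and 111.3 FPKM in DE, against 19.32 and 11.23 FPKM in PSC (2.83 ± 0.21, adjusted p = 1.76e-05). MMP15 rose to 27 and 30.73 FPKM in DE, against 1.24 and 1.41 FPKM in PSC (4.47 ± 0.12, adjusted p = 1.67e-07). MMP17, another membrane-bound member, fell (0.2 and 0.29 FPKM in DE, 4.33 and 4.22 FPKM in PSC; -4.09 ± 0.90, adjusted p = 0.00576). ADAMTS7, which degrades matrix glycoproteins, had 24.88 and 26.67 FPKM in DE against 2.89 and 3.09 FPKM in PSC (3.14 ± 0.09, adjusted p = 2.76e-07). Stromal cells express many matrix genes too, and the summed fibroblast markers given earlier were higher in both DE libraries than in both PSC libraries. VIM was the largest part of that sum (363 and 295.3 FPKM in DE, 261.4 and 263.6 FPKM in PSC). Of the 23 fibroblast markers 17 were called higher, 1 lower and 5 not at all. DCN, LUM, POSTN, FAP and PRRX1 were at 0.16 FPKM or less in every library, though DCN and POSTN were among those called higher. Members at higher levels rose too. TAGLN had 46.58 and 55.63 FPKM in DE against 18 and 18.28 FPKM in PSC, and S100A4 19.32 and 8.88 FPKM against 0 and 1.32 FPKM. COL5A1 had 12.97 and 10.92 FPKM in DE against 1.93 and 0.99 FPKM in PSC. COL1A1, COL1A2 and COL3A1 were higher in DE, COL1A1 at 17.9 and 3.15 FPKM in DE against 0.98 and 0.77 FPKM in PSC.

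Growth factors and their antagonists differed by family. WNT ligands and antagonists were higher for 15 of 34 and lower for 5. WNT11, a ligand of the planar polarity branch, was at 29.73 and 46.45 FPKM in DE against 0.06 and 0.16 FPKM in PSC (adjusted p = 1.25e-06), and DKK3 rose (15.84 and 14.06 FPKM in DE, 3.35 and 4.86 FPKM in PSC; 1.899 ± 0.33, adjusted p = 0.00183). SFRP1 and SFRP2, secreted antagonists that bind WNT, fell, SFRP1 to 6.73 and 6.57 FPKM in DE, against 24.27 and 24.5 FPKM in PSC (-1.84 ± 0.08, adjusted p = 1.77e-06). SFRP2 fell to 0.42 and 0.19 FPKM in DE, against 16.55 and 14.47 FPKM in PSC (adjusted p = 5.38e-06). TGF-beta family ligands and antagonists were higher for 25 of 44 and lower for 8, yet their summed level was lower, 454.39 and 434.52 FPKM in DE against 1423.1 and 1500.8 FPKM in PSC. Most of the PSC sum was LEFTY2, an antagonist of NODAL, with 0.73 and 0.83 FPKM in DE against 1141 and 1217 FPKM in PSC (-10.51 ± 0.34, adjusted p = 4.54e-07). BMP7 rose to 25.15 and 35.23 FPKM in DE, against 2.04 and 2.51 FPKM in PSC (3.77 ± 0.20, adjusted p = 3.28e-06). TGFB1 rose to 16.59 and 12.4 FPKM in DE, against 0.4 and 0.74 FPKM in PSC (4.71 ± 0.27, adjusted p = 4.31e-06). The BMP modulator BMPER had 43.14 and 46 FPKM in DE against 0.21 and 0.03 FPKM in PSC (adjusted p = 1.65e-06). FST, follistatin, the antagonist of activin, fell to 47.61 and 73.28 FPKM in DE, against 150.2 and 166.7 FPKM in PSC (-1.35 ± 0.19, adjusted p = 0.000605).

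FGF ligands gave 5 higher and 6 lower calls of 19, not far from the shares over all genes tested (30.8% and 23.0%). FGF19, a hormone-like ligand, fell to 8.11 and 6.24 FPKM in DE, against 26.25 and 20.7 FPKM in PSC (-1.67 ± 0.20, adjusted p = 0.000224). FGF17 fell to 4.62 and 3.49 FPKM in DE, against 10.68 and 13.45 FPKM in PSC (-1.54 ± 0.27, adjusted p = 0.00194), and FGF8 was not called (7.65 and 8.31 FPKM in DE, 12.62 and 12.9 FPKM in PSC). FGF11, which stays inside the cell, rose to 30.85 and 19.74 FPKM in DE, against 2.91 and 3.37 FPKM in PSC (3.04 ± 0.21, adjusted p = 1.24e-05). Of other growth factors 23 of 52 were higher and 9 lower. GRN, progranulin, rose to 39.96 and 41.21 FPKM in DE, against 5.83 and 5.7 FPKM in PSC (2.85 ± 0.07, adjusted p = 1.24e-07). TGFA, an EGF receptor ligand, fell to 0.2 and 0.21 FPKM in DE, against 5.03 and 8.53 FPKM in PSC (-5.01 ± 0.52, adjusted p = 9.87e-05). Chemokines, interleukins and TNF family ligands were higher for 16 of 42 and lower for 1. That 1 was TNFSF11, the ligand RANKL (chromosome 11, positions 24468110 to 24505477), with 0.1 and 0.1 FPKM in DE against 22.42 and 21.67 FPKM in PSC (-7.74 ± 0.21, adjusted p = 7.05e-07). MIF, the most abundant cytokine of the list, rose to 1812 and 1661 FPKM in DE, against 405.5 and 441.3 FPKM in PSC (2.07 ± 0.08, adjusted p = 7.61e-07).

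Transcription factor families were uneven. Of 7 GATA factors and their cofactors, 6 were higher and the other was not called. Beside the endodermal members stood GATA3 (chromosome 10, positions 63367663 to 63388859), known from trophoblast, amnion and surface ectoderm, at 41.87 and 51.76 FPKM in DE against 0.02 and 0.08 FPKM in PSC (adjusted p = 2.11e-07). ZFPM1, the cofactor FOG1, was at 15.31 and 17.3 FPKM in DE against 0.16 and 0.12 FPKM in PSC (6.86 ± 0.21, adjusted p = 3.7e-07). The amnion and trophoblast markers CDX2 and WNT6 were listed at 0 in PSC and stood at 1.4 and 1.01 FPKM and at 1.88 and 2.65 FPKM in DE, and TFAP2C, another marker of these tissues, fell (0.6 and 0.18 FPKM in DE, 2.12 and 1.51 FPKM in PSC; adjusted p = 0.014). T-box factors were higher for 7 of 12, and the other 5 were not called. TBX3 had 12.95 and 14.8 FPKM in DE against 0.06 and 0.02 FPKM in PSC (adjusted p = 4.59e-07), and TBX6 had 7.34 and 5.54 FPKM in DE against 0.91 and 0.72 FPKM in PSC (3.00 ± 0.23, adjusted p = 1.97e-05). TBX2 and TBX20 were listed at 0 in PSC and at 3.83 and 5.99 FPKM and at 4.08 and 3.91 FPKM in DE.

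Of 15 SOX genes 6 were higher and 2 lower. SOX4 rose to 44.87 and 40.22 FPKM in DE, against 1.29 and 2.25 FPKM in PSC (4.63 ± 0.30, adjusted p = 8.04e-06), its close relative SOX11 was not called (13.75 and 12.16 FPKM in DE, 10.92 and 12.03 FPKM in PSC), and SOX9 was low in both stages and fell (-0.91 ± 0.17, adjusted p = 0.00245). FOX factors were higher for 17 of 35 and lower for 4. FOXP4 rose to 17.63 and 22.4 FPKM in DE, against 3.88 and 3.85 FPKM in PSC (2.41 ± 0.11, adjusted p = 2e-06). FOXK1 rose to 9.68 and 9.99 FPKM in DE, against 1.43 and 1.57 FPKM in PSC (2.75 ± 0.11, adjusted p = 9.72e-07). FOXO1, the insulin-regulated member, fell to 6.1 and 6.49 FPKM in DE, against 12.43 and 12.41 FPKM in PSC (-0.94 ± 0.11, adjusted p = 0.000198). FOXH1, the SMAD partner through which NODAL acts, was not called (38.51 and 47.75 FPKM in DE, 32.47 and 30.31 FPKM in PSC; adjusted p = 0.171).

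HOX genes were higher for 15 of 32 and lower for 2, all of them low, and other scalings and models called 9 to 15 higher. The highest were HOXB6 with 4.85 and 4.14 FPKM and HOXB9 with 3.45 and 4.24 FPKM in DE, both listed at 0 in PSC, and the summed level of the list was 17.19 and 14.73 FPKM in DE against 0.81 and 1.15 FPKM in PSC. Because 26 of the 32 tested were listed at 0 in both libraries of a stage, the fitted median of 5.90 falls to 0.33 with bounds. Other homeobox factors were called at 28 higher and 17 lower of 98, both under the shares over all genes tested (30.8% and 23.0%). MSX2, a target of BMP signalling, rose to 67.15 and 81.57 FPKM in DE, against 2.18 and 1.69 FPKM in PSC (5.29 ± 0.17, adjusted p = 3.97e-07).

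Of 26 ETS factors tested 13 were higher and 6 lower. The 3 members of the PEA3 subfamily, which FGF and ERK signalling turn on, all fell: ETV4 to 15.46 and 12.25 FPKM in DE, against 51.85 and 35.29 FPKM in PSC (-1.61 ± 0.18, adjusted p = 0.000143). ETV5 fell to 5.74 and 5.62 FPKM in DE, against 22.97 and 24 FPKM in PSC (-2.01 ± 0.11, adjusted p = 3.69e-06). ETV1 fell to 0.48 and 0.3 FPKM in DE, against 13.32 and 5.88 FPKM in PSC (adjusted p = 0.000116). ERF, an ETS repressor that ERK keeps out of the nucleus, rose to 36.41 and 33.21 FPKM in DE, against 3.61 and 1.98 FPKM in PSC (3.67 ± 0.23, adjusted p = 7.02e-06). ELF3, an epithelial member, rose to 34.55 and 30.25 FPKM in DE, against 0.48 and 0.87 FPKM in PSC (5.64 ± 0.22, adjusted p = 8.52e-07). Some immediate early genes, the first to respond to growth factors, fell as well: FOS had 1.65 and 0.94 FPKM in DE against 15.32 and 17.67 FPKM in PSC (-3.64 ± 0.39, adjusted p = 0.00012). FOSB had 0.48 and 0.29 FPKM in DE against 10.39 and 15.4 FPKM in PSC (-5.00 ± 0.32, adjusted p = 7.36e-06). EGR1 had 2.04 and 1.29 FPKM in DE against 13.77 and 16.68 FPKM in PSC (-3.15 ± 0.26, adjusted p = 3.03e-05). JUN moved the other way (20.5 and 12.53 FPKM in DE, 1.54 and 3.01 FPKM in PSC; 2.90 ± 0.33, adjusted p = 0.000165). FOSL2 had 11.75 and 5.03 FPKM in DE against 0.04 and 0.13 FPKM in PSC (adjusted p = 4.44e-05). In the whole list of AP-1, CREB, ATF, CEBP and MAF factors 22 of 48 were higher and 7 lower. NFE2L3, a cap'n'collar factor, fell to 2.87 and 3.54 FPKM in DE, against 32.64 and 28.76 FPKM in PSC (-3.22 ± 0.13, adjusted p = 1.09e-06). NFE2L2, the master regulator of antioxidant genes, rose to 14.23 and 16.79 FPKM in DE, against 6.18 and 7.3 FPKM in PSC (1.24 ± 0.14, adjusted p = 0.00014).

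Basic helix-loop-helix factors were higher for 34 of 73 and lower for 12. The ID proteins bind other members and keep them off DNA. ID1 rose to 566.5 and 623.4 FPKM in DE, against 79.59 and 68.33 FPKM in PSC (3.04 ± 0.09, adjusted p = 2.41e-07), and within the ID set its share fell to 41.3% and 42.2% in DE, against 79.6% and 79.0% in PSC, as ID3 took 44.7% and 43.9% in DE. By CPM ID1 stayed the largest of the set, with 42.5% in DE and 81.2% in PSC. The inhibitory SMADs shifted in the same way, SMAD6 holding 95.3% and 95.9% of their sum in DE against 9.01% and 10.5% in PSC, where SMAD7 led; SMAD7 itself was not called (6.21 and 6.48 FPKM in DE, 7.57 and 6.6 FPKM in PSC). HES1, a Notch target, rose to 58.56 and 57.81 FPKM in DE, against 5.17 and 4.5 FPKM in PSC (3.62 ± 0.09, adjusted p = 1.46e-07). MYC fell to 6.93 and 5.07 FPKM in DE, against 29.07 and 29.07 FPKM in PSC (-2.24 ± 0.17, adjusted p = 1.69e-05). Its antagonist MXD4 rose to 16.08 and 19.48 FPKM in DE, against 5.6 and 4.62 FPKM in PSC (1.83 ± 0.13, adjusted p = 1.15e-05). HIF1A, the oxygen-regulated factor of glycolytic genes, was not called (13.66 and 16.3 FPKM in DE, 18.53 and 15.09 FPKM in PSC; adjusted p = 0.418), although DESeq2's Wald test called it, with a log2 change of -0.29.

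**Figure D4:**
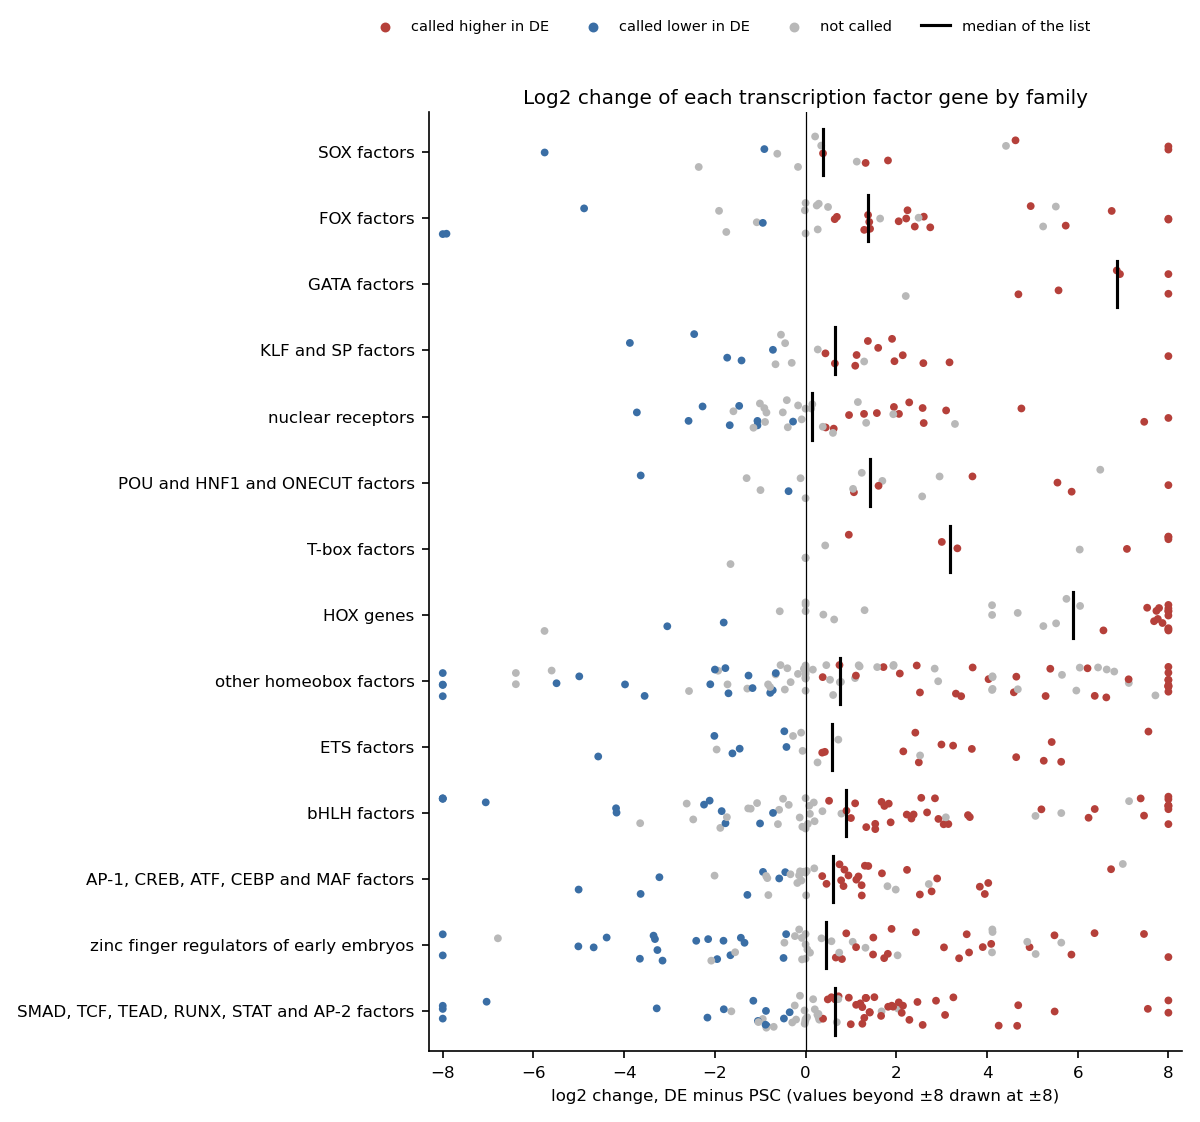
Log2 change (DE minus PSC) of every tested transcription factor gene by family, 1 point a gene, red where called higher, blue where called lower and grey where not called, with the family's fitted median as a black bar. Called GATA and T-box factors lie right of 0, and values beyond the axis are drawn at its edge, among them many genes listed at 0 in a stage.

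Nuclear receptors gave 14 higher and 8 lower calls of 42, a balance that became even with centring on the median gene (11 against 11). Their shares were near those over all genes tested (30.8% higher and 23.0% lower). Receptors of the retinoid group moved in both directions: RXRA rose to 14.23 and 16 FPKM in DE, against 2.69 and 2.4 FPKM in PSC (2.60 ± 0.10, adjusted p = 7.52e-07). RARA rose to 11.75 and 12.18 FPKM in DE, against 2.86 and 2.17 FPKM in PSC (2.29 ± 0.13, adjusted p = 4.12e-06). RXRG fell to 0.57 and 0.7 FPKM in DE, against 8.56 and 8.86 FPKM in PSC (-3.72 ± 0.37, adjusted p = 7.9e-05). RARG fell to 3.04 and 1.91 FPKM in DE, against 8.6 and 7.63 FPKM in PSC (-1.67 ± 0.20, adjusted p = 0.000199). NR2F6 rose (63.98 and 71.5 FPKM in DE, 22.99 and 23.72 FPKM in PSC; 1.57 ± 0.10, adjusted p = 6.72e-06) and so did NR1H2, the oxysterol receptor LXR-beta (31.9 and 32.87 FPKM in DE, 9 and 8.21 FPKM in PSC; 1.95 ± 0.10, adjusted p = 2.53e-06). KLF and SP factors were higher for 12 of 23 and lower for 5. KLF5 and KLF4 of the naive pluripotency network fell, KLF5 to 1.39 and 0.93 FPKM in DE, against 6.63 and 6.42 FPKM in PSC (-2.46 ± 0.17, adjusted p = 1.24e-05). KLF4 fell to 0.12 and 0.16 FPKM in DE, against 1.58 and 2.7 FPKM in PSC (-3.87 ± 0.36, adjusted p = 5.54e-05). Zinc finger regulators of the early embryo gave 22 higher and 19 lower calls of 66, also not far from those shares over all genes (30.8% and 23.0%). SALL2 fell to 19.63 and 17.25 FPKM in DE, against 82.51 and 85.07 FPKM in PSC (-2.15 ± 0.08, adjusted p = 7.61e-07). SALL1 rose to 18.72 and 16.73 FPKM in DE, against 5.71 and 4.63 FPKM in PSC (1.81 ± 0.16, adjusted p = 4.6e-05). SALL4 rose to 11.66 and 9.32 FPKM in DE, against 0.99 and 0.43 FPKM in PSC (adjusted p = 4.4e-05). The signal-transducing SMADs, TEADs, STATs, IRFs and AP-2 factors together were higher for 38 of 76 and lower for 14. SMAD1, which carries BMP signals, rose to 12.02 and 13.93 FPKM in DE, against 0.64 and 0.74 FPKM in PSC (4.26 ± 0.21, adjusted p = 2.46e-06). IRF7 rose to 19.11 and 20.55 FPKM in DE, against 2.2 and 2.03 FPKM in PSC (3.26 ± 0.15, adjusted p = 1.59e-06).

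**Figure D5:**
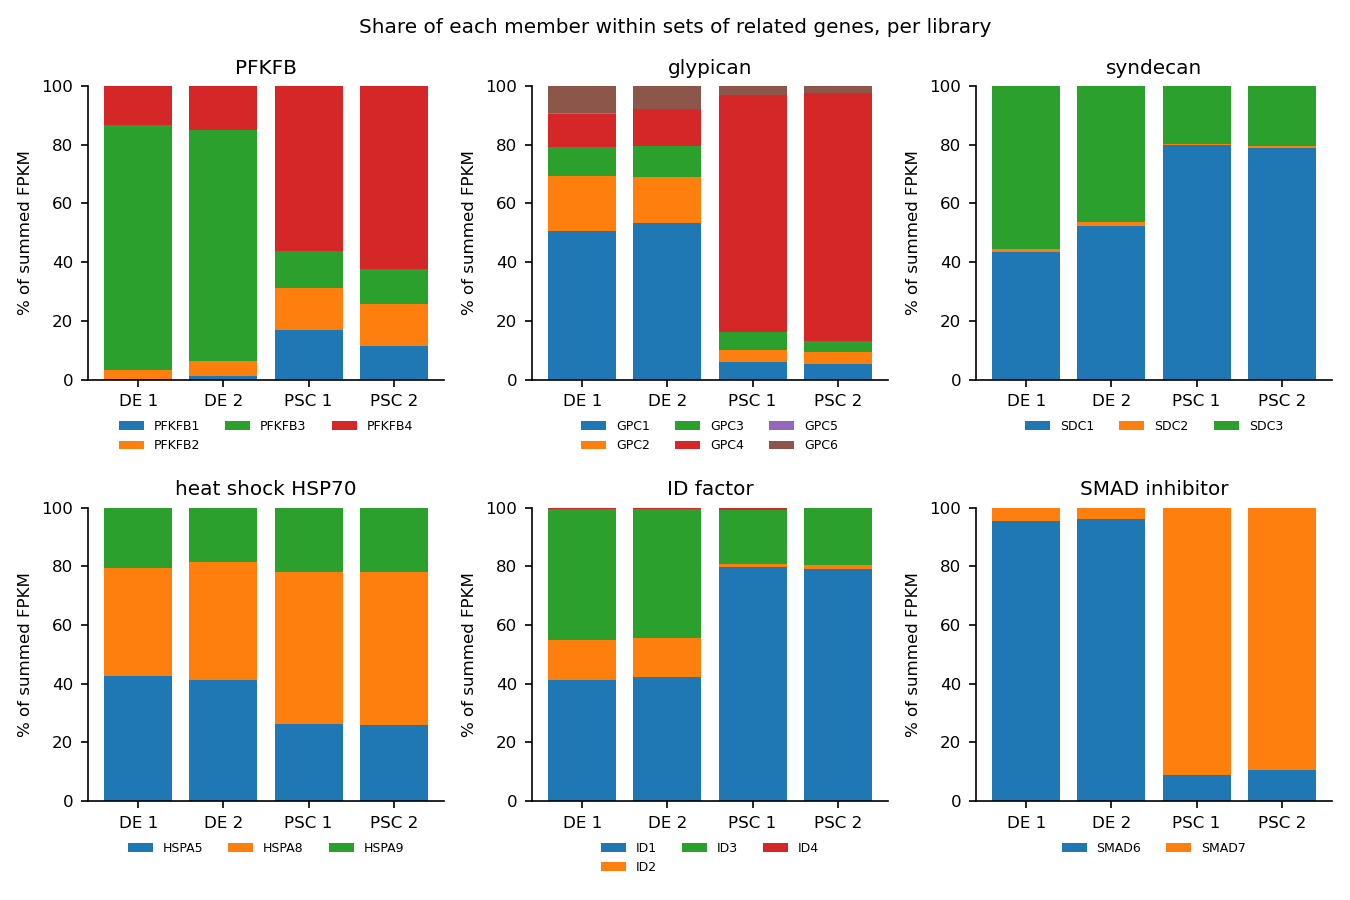
Share of each member in the summed FPKM of 6 sets of related genes, 1 bar a library, DE bars left of PSC bars. In the PFKFB, glypican, ID and inhibitory SMAD sets both DE bars differ from both PSC bars in their largest member by FPKM, whereas by CPM, which leaves transcript length out, ID1 was the largest in both stages.

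By FPKM, which corrects for transcript length, the leading member differed between the stages in 10 of 41 sets of related genes. By CPM 8 of these 10 also differed, all but the ID and HSP70 sets, as did 4 others, LIN28, cyclin D, laminin alpha and glycogen phosphorylase. Besides the sets already given, SDC3 held 55.6% and 46.2% of the syndecan level in DE against 19.8% and 20.3% in PSC, and SDC1 held 43.4% and 52.4% in DE against 79.8% and 78.8% in PSC, so the leader differed between the 2 DE libraries. HSPA5, the chaperone of the endoplasmic reticulum, held 42.6% and 41.3% of its set in DE against 26.1% and 25.9% in PSC, where the cytosolic HSPA8 led with 51.8% and 52.3%. By CPM HSPA8 led in both stages, with 61.0% in DE and 72.8% in PSC. The remaining sets were FOXA, GATA, the carnitine palmitoyltransferases and the thrombospondins. Among these, FOXA3 overlaps SYMPK, CPT1C overlaps PRMT1 and THBS3 overlaps MTX1 in the table, so their reads may be shared and the leader of these 3 sets in PSC is uncertain. In PSC the leading GATA gene was GATA6 in the first library (48.2%) and GATA5 in the second (45.6%), at levels under 1 FPKM, and CPT1A and CPT1C held equal shares in the first library (40.0% each).

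Chromatin regulators were called higher for 25 of 57 and lower for 16, a majority that turned under the scaling on the median gene (21 against 24). TRIM28, the co-repressor of retroelements, rose to 329.2 and 401.2 FPKM in DE, against 241.9 and 185.8 FPKM in PSC (0.81 ± 0.12, adjusted p = 0.000884). HDAC2 fell to 55.49 and 56.89 FPKM in DE, against 92.35 and 95.42 FPKM in PSC (-0.70 ± 0.06, adjusted p = 2.21e-05). HDAC7 rose to 42.94 and 43.72 FPKM in DE, against 5.99 and 4.06 FPKM in PSC (3.14 ± 0.16, adjusted p = 2.65e-06). Of 18 imprinted genes 9 were higher and 2 lower, CDKN1C, an inhibitor of cyclin-dependent kinases, with 36.78 and 36.13 FPKM in DE against 5.59 and 7.67 FPKM in PSC (2.50 ± 0.16, adjusted p = 8.89e-06).

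The largest falls outside the pluripotency network included genes of other settings. CYP1A1, the aryl hydrocarbon receptor target that oxidises foreign compounds, had 1.74 and 2.09 FPKM in DE against 182.3 and 162.6 FPKM in PSC (-6.45 ± 0.15, adjusted p = 1.18e-07). HERC5, an interferon-induced ligase for ISG15, had 0.94 and 0.49 FPKM in DE against 40.34 and 46.6 FPKM in PSC (-5.89 ± 0.30, adjusted p = 2.68e-06), and CPE, carboxypeptidase E, which processes peptide hormones, 1.68 and 1.64 FPKM in DE against 46.78 and 48.15 FPKM in PSC (-4.80 ± 0.22, adjusted p = 1.65e-06). Genes best known from neurons were among them too: VSNL1, a calcium sensor, was at 0 and 0.14 FPKM in DE against 28.66 and 29.63 FPKM in PSC (adjusted p = 0.000115), and ELAVL3, an RNA binding protein, at 0.34 and 0.8 FPKM in DE against 28.86 and 20.42 FPKM in PSC (adjusted p = 4.75e-05). These genes were picked by a rule that required the libraries of the stages not to overlap, so their separation follows from that choice.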

How the data were processed

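RNA-seq libraries of PSC, DE, anterior foregut endoderm and lung progenitor organoids, 2 each, were compared by gene. The authors deposited FPKM (corrected for transcript length and depth) and estimated counts for each gene in every library. Tools listed in the submitters' processing notes are StringTie 2.1.6, HISAT2 2.2.1 and cutadapt 1.9, beside edgeR and DESeq2, with no role given. The genome build and the strand setting of the counting are not given in the sources used here. Coordinates are as in the deposited table. The deposited counts are whole numbers, and 1 read pair was taken to weigh 4 of them. This weight is an assumption, since many low counts are not multiples of 4. The PSC columns are headed EPSC in the deposited table.

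Counts were normalised by TMM and tested with edgeR 4.0.16 (R 4.3.3; quasi-likelihood test, Benjamini-Hochberg adjustment) over all 8 libraries with stage as the only term, after edgeR's filter on low counts left 19346 of 25578 genes. The test was tried on simulated data with known changes. Alternatives used DESeq2 1.42.0, limma 3.58.1 on log2(FPKM + 1, 0.5 or 0.1), which understates changes of low genes, another scaling or filter, a replicate block, and leaving out each library. Python 3.11.15, pandas 2.3.3, scipy 1.17.1 and matplotlib 3.10.9 were used for tables and plots.

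The comparison, the markers and the gene lists were chosen with earlier results of these data known. Genes were named by a rule: the 15 largest rises and falls among called genes of at least 20 FPKM in the higher stage, the 10 largest rises and falls in FPKM, for every list at most 4 called members, taken by level, and at most 2 that moved the other way, members of sets whose leader differed, and the markers. For the 15 largest rises and falls the libraries of the stages also had to lie apart. A further 58 genes were chosen after their values were seen: ACSL4, ADAMTS7, AGRN, BMP7, CD151, CER1, CLDN3, CLDN6, CNTFR, COX4I1, DHRS3, EFNB1, EGR1, ETV1, FABP3, FGF8, FGFR4, FGFRL1, FOS, FOSB, FOSL2, FOXH1, FOXK1, FZD5, GAPDH, GLDC, GSC, HDAC7, HES1, HIF1A, IDH3G, IRF7, JUN, KLF4, LAMA1, LRP5, LRP6, MXD4, MYC, NDUFB9, NFE2L2, OGDH, PCDH7, PDHA1, PFKL, PROS1, PYCR3, RARA, RARG, RXRA, SALL4, SLC7A3, SMAD1, SOX11, TFAP2C, TGFB1, TGFBR1 and TNFRSF1A. Mitochondrially encoded genes were not analysed here. P-values below 0.05 after adjustment were called. Intervals are not given for FPKM, and the floor of 3 read pairs per library covers counting error only.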

Additional observations from a re-analysis of the deposited data

How the results depend on the processing

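Of the 5 counts of calls between DE and PSC, several moved by over 1.5 times under another setting. A filter of 5 FPKM in 2 libraries, which left 7511 genes to test, gave 6205 calls, 3178 of them higher, with 2042 higher and 1096 lower by 2-fold or more. limma on log2(FPKM + 1) gave 2603 higher and 1329 lower by 2-fold or more, and centring on the median gene gave 3456 lower by 2-fold or more. Without 1 library at a time there were 9052 to 10054 calls, 5222 to 5955 higher and 3830 to 4099 lower, and 3974 to 4541 higher and 1995 to 2138 lower by 2-fold or more. Same-numbered libraries of different stages did not deviate together over all genes tested (correlations from -0.0136 to 0.00782). Such a correlation cannot show whether a shared culture or run affected some genes, and the labels do not say. A replicate block gave 9759 calls (5644 higher, 4115 lower), 9662 of them shared with the fit without it. With only the 4 PSC and DE libraries 16558 genes were tested and 9238 called (5165 higher, 4073 lower). The shares given over all genes tested thus include genes kept by the filter through the other stages. Of 409 named genes, 372 kept their direction and their call, where they had one, in every setting that tested them. Of the other 37, 2 genes reversed: COX5A to -0.085 with centring on the median gene, and MDK to -0.02 with DESeq2's size factors, -0.17 with that centring and -0.02 with the Wald test. Of the genes given as not called, PFKFB4, CLDN6, COX4I1, FABP3, FGF8, FOXH1, GAPDH, HIF1A and TGFBR1 were called in at least 1 other setting, COX4I1 in opposite directions. Library depth limits genes under about 1 FPKM, most of all in PSC.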

Other observations

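Pathway labels in the deposited table (KEGG) covered groups not described above, and these moved in opposite directions. Genes for the ribosome, tRNA charging and the proteasome were called lower more than higher: of 146 tested genes labelled ribosome 110 were lower and 20 higher, of 97 for ribosome biogenesis 71 were lower and 10 higher, of 69 for aminoacyl-tRNA synthesis 42 were lower and 10 higher, and of 45 for the proteasome 33 were lower and 2 higher. The 70 cytosolic ribosomal protein genes had a median log2 change of -0.74, with 56 lower and 11 higher, and held 17.0% and 16.5% of all FPKM in DE against 22.4% and 22.8% in PSC. Genes for the spliceosome (130 lower and 23 higher of 184) and DNA replication (25 lower and 4 higher of 38) followed the same direction. Branched-chain amino acid breakdown did too, with 29 lower and 6 higher of 45. Protein processing in the endoplasmic reticulum had more higher than lower calls, 96 and 66 of 227, with a median log2 change of 0.13. That median is smaller than the 0.31 by which centring on the median gene lowered log2 changes. The summed level of this group was lower in DE, 13656 and 14101 FPKM against 15019 and 15310 FPKM in PSC.

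Other labels had more genes called higher than lower. Of 164 genes labelled lysosome 97 were higher and 18 lower, of 308 for endocytosis 146 were higher and 55 lower, and of 168 for tight junctions 91 were higher and 32 lower. The summed level of the tight junction genes was 11802 and 12083 FPKM in DE against 12251 and 12225 FPKM in PSC. Heparan sulphate synthesis had 13 of 23 higher, and the other 10 were not called. For comparison, 30.8% of all genes were higher and 23.0% lower.

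The share of genes called higher in DE differed by chromosome, at 41.4% of 1121 genes on chromosome 12 and 39.1% of 1718 on chromosome 2, against 19.6% of 372 on chromosome 11. Small nucleolar RNAs were lower for 35 and higher for 4 of 166 tested, with a median log2 change of -0.78, in libraries selected for polyadenylated RNA. That is 21.1% lower, against 23.0% of all genes, and 2.41% higher, against 30.8% of all genes. Small nuclear RNAs were higher for 12 and lower for 1 of 24.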
